A study of Mus musculus with 6 samples.

Results

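The HoxA genes described here are 10 homeobox genes of mouse chromosome 6, Hoxa2, Hoxa3, Hoxa4, Hoxa5, Hoxa6, Hoxa7, Hoxa9, Hoxa10, Hoxa11 and Hoxa13, taken by symbol from a count table of 23377 genes. They were measured by RNA-seq in hair follicle stem cells of C57BL/6 mice, in 2 libraries labelled Ring1a/b-/- (RingKO) and 2 wild-type (WT) libraries, each made from 3000 sorted cells. Ring1b ChIP-seq peak lists were also used, 1 from hair follicle stem cells of anagen-synchronised follicles and 1 from intestinal stem cells, both sorted as LGR5-GFP positive from C57BL/6 mice labelled LGR5-Ring1a/b ++. No source used here gives the age of the mice, how and in which cells Ring1a and Ring1b were deleted, any pooling, or whether each RNA library stands for its own animal. The p-values therefore measure only the spread between these libraries, which may be technical.

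Hox genes encode transcription factors that set position along the body axis. Within a cluster the genes lie in the order in which they act, from anterior paralogues with low numbers to posterior ones with high numbers, and posterior genes are kept off in anterior tissues. Polycomb repressive complex 1 (PRC1), whose catalytic subunit is Ring1a or Ring1b, is best known for this silencing of Hox genes. Skin keeps a position-dependent Hox code in adult life.

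Total counts were 4844381 and 7740945 in the RingKO libraries and 2785843 and 3056593 in the WT libraries, so 1 count was worth less in RingKO. The floor of 3 counts used for genes without reads corresponds to 0.606 and 0.374 CPM (counts scaled to a common library size) in the RingKO libraries and to 1.14 and 1.00 CPM in the WT libraries. Ring1, the gene of Ring1a, had 15.5 and 18.4 CPM in RingKO against 31.9 and 29.4 CPM in WT, and Rnf2, the gene of Ring1b, 151 and 153 CPM in RingKO against 144 and 87.8 CPM in WT. Counts over whole genes do not check the genotype where only some exons are deleted. Of 10 hair follicle stem cell markers, 10 and 10 had a count in RingKO and 8 and 9 in WT, with a summed level, mostly of Krt5, Krt14 and Krt15, of 1614 and 1399 CPM in RingKO against 1523 and 1517 CPM in WT. Single markers moved apart under that sum. At an unadjusted p under 0.05 in edgeR, 3 of 9 tested were higher (Lgr5, Sox9 and Nfatc1) and 1 lower (Krt15), against 8.47% and 8.16% of all genes. At an adjusted p under 0.05 edgeR called 0 of them. DESeq2 called the same 3 higher and 1 lower at its adjusted p under 0.05, where 6.21% of its genes were called higher and 6.14% lower. Lgr5 stood at 251 and 240 CPM in RingKO against 140 and 193 CPM in WT, and Nfatc1 at 38.8 and 34.0 CPM in RingKO against 0 and 2.34 CPM in WT. Cd34 had 15.3 and 2.61 CPM in RingKO against 24.3 and 20.4 CPM in WT.

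The comparison of RingKO with WT cells asks which HoxA genes differ when both catalytic subunits are labelled as lost. The members with an unadjusted p under 0.05 all lay at the posterior end. Hoxa10 and Hoxa11, near or at 0 in WT, and Hoxa9, low in WT, were higher in both RingKO libraries than in both WT libraries, while the values of Hoxa7, the member with most counts in WT, overlapped between genotypes. By edgeR's quasi-likelihood test, with p-values adjusted by Benjamini-Hochberg over 13134 genes, 0 of the 9 members that passed the low-count filter were called at an adjusted p under 0.05, a threshold that 0.0533% of all genes passed as higher and 0.00761% as lower. At an unadjusted p under 0.05, 3 of 9 were higher (Hoxa9, Hoxa10 and Hoxa11) and 0 lower, against 8.47% and 8.16% of all genes. At an adjusted p under 0.1, 1 was higher (Hoxa10) and 0 lower, against 0.274% and 0.0457% of all genes. DESeq2 called the same 3 as higher at its adjusted p under 0.05, where 6.21% of its genes were called higher and 6.14% lower, and limma-voom called 0 of 9. The authors' deposited table also marks these 3 higher and 0 lower, with 4.56% of all genes marked higher and 0.8% lower. Hoxa6, Hoxa10 and Hoxa11 reached the filter's cutoff of 2.53 CPM in 2 RingKO libraries and in 0 WT libraries. They were tested only because they were high in RingKO, so the counts above are a description and lend the contrast no weight.

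**Figure D1:**
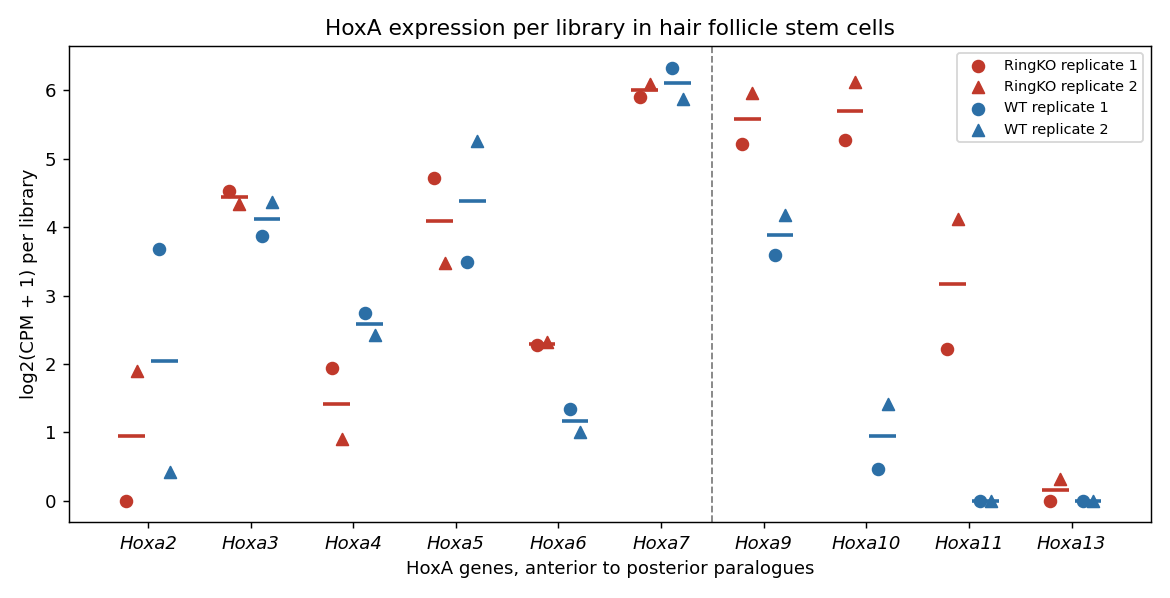
Expression of the 10 HoxA genes as log2(CPM + 1), RingKO left (red) and WT right (blue) of each gene, with circles for replicate 1, triangles for replicate 2 and bars for the mean of the log values of 2 libraries. Right of the dashed line, the RingKO points of Hoxa9, Hoxa10 and Hoxa11 all lie above the WT points.

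The regions around the start sites are shown for the members on either side of the boundary, so that Hoxa9, Hoxa10 and Hoxa11 can be set beside Hoxa7, whose levels overlapped between genotypes, and Hoxa13, which stood at the floor. RefSeq sequences matched 9 of the 10 members by symbol (not Hoxa4), each running from 250 bases before to 50 after the start, on build GRCm38.p6, which differs from the mm9 build of the study's files. Capitals mark CG dinucleotides, the CpG sites whose density goes with Polycomb occupancy in mammals.
Hoxa7 (chr6:52218524-52218823, minus strand): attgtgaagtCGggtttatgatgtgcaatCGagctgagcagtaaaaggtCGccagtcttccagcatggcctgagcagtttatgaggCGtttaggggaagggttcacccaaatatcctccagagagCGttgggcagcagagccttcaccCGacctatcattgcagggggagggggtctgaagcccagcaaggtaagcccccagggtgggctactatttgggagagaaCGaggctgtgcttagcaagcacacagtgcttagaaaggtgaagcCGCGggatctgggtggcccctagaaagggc
Hoxa9 (chr6:52227321-52227620, minus strand): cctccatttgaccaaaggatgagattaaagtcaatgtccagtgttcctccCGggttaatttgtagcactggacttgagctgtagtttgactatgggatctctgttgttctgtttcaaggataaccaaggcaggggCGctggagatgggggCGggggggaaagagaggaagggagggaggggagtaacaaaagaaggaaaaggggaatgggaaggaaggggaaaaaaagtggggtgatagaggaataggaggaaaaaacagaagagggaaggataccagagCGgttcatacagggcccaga
Hoxa10 upstream start (chr6:52240805-52241104, minus strand): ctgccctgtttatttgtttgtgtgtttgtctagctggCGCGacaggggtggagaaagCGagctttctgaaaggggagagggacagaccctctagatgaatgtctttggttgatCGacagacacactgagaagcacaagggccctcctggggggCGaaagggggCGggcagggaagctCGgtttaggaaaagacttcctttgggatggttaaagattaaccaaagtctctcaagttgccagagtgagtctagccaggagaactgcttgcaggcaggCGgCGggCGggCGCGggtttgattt
Hoxa10 downstream start (chr6:52234890-52235189, minus strand): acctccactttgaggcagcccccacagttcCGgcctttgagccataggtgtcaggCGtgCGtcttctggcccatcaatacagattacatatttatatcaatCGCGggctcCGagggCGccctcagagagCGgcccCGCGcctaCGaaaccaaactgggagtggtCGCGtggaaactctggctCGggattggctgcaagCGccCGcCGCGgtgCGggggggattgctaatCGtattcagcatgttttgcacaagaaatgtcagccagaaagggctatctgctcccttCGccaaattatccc
Hoxa11 (chr6:52245761-52246060, minus strand): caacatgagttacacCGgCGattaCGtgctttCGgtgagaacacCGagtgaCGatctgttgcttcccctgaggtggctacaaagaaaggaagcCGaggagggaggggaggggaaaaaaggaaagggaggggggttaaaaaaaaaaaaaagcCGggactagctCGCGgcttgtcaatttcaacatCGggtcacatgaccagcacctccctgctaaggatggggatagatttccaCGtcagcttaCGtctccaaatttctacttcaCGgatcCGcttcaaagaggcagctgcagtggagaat
Hoxa13 (chr6:52260831-52261130, minus strand): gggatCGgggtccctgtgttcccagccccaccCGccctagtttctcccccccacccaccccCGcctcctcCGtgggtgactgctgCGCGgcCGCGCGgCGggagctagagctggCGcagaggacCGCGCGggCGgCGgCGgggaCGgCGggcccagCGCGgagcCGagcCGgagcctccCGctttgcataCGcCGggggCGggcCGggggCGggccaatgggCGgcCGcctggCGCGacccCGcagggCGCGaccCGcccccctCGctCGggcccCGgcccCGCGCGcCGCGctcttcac

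CpG sites numbered 4 at Hoxa9, 12 and 21 at the Hoxa10 starts and 15 at Hoxa11, against 9 at Hoxa7 and 45 at Hoxa13. Over the 32851 promoters of the table the median was 7, and 1.93% held as many as Hoxa13 or more. Hoxa9 was the only one of these below that median. A search on both strands for the Cdx motif TTTATG found it in the Hoxa7 promoter (11.9% of all promoters hold it), and the PBX-HOX motif TGATNNAT was found at Hoxa2 (8.85%). CCAAT was found at 5 of the 10 member promoters (37.4% of all), among them the downstream start of Hoxa10, which also held TATAAA (13.6% of all). No match overlapped a match of another of the 4 motifs. A match is a run of letters and not a measured binding site.

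Hoxa10, a posterior gene that patterns the lumbar region and the uterus, had 37.5 and 68.5 CPM in RingKO (186 and 550 counts) against 0.38 and 1.67 CPM in WT (1 and 5 counts). Both RingKO libraries stood far above both WT libraries, which held it near the floor. The log2 fold change was 5.63 ± 0.864 (SE), with an edgeR adjusted p of 0.0798, the member closest to the threshold and rank 23 by p among all genes tested. Without WT replicate 2, which held 5 of its 6 WT counts, Hoxa10 passed (edgeR adjusted p = 0.0396), a fit in which the lone WT library, with 1 count, is assumed to vary like the RingKO group. Without RingKO replicate 1, RingKO replicate 2 and WT replicate 1 in turn it did not pass, with edgeR adjusted p of 0.137, 0.473 and 0.0588. Without WT replicate 2 the ratio of summed CPM-scaled counts was 149 with a 95% counting interval of 26.7 to 5904. With all libraries that ratio was 53.2 (24.3 to 145), and without WT replicate 1 it was 34.0 (14.5 to 105). These intervals hold counting error only and leave out the spread between libraries of a genotype. DESeq2 gave an adjusted p of 2.98e-09.

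Hoxa9, known from blood progenitors and from leukaemia, had 36.1 and 61.3 CPM in RingKO against 11.01 and 17.02 CPM in WT. Hoxa9 was already expressed in both WT libraries, and the groups did not overlap. Its log2 fold change was 1.79 ± 0.569 (SE; edgeR adjusted p = 0.18, DESeq2 adjusted p = 0.0075).

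Hoxa11, which patterns the forearm and the uterus, had 3.63 and 16.4 CPM in RingKO (18 and 132 counts) and 0 counts in both WT libraries. The RingKO libraries differed from each other more for this gene than for Hoxa9 or Hoxa10. Against a floor of 3 counts over the WT group, Hoxa11 was at least 21.7-fold higher in RingKO (edgeR adjusted p = 0.152, DESeq2 adjusted p = 0.00624). Without RingKO replicate 2 the bound was at least 6.82-fold, and without WT replicates 1 and 2 in turn, where the floor covers fewer reads, at least 11.5-fold and at least 10.1-fold. At the depth of the shallowest library, the 18 counts of RingKO replicate 1 would be 9.57. The non-coding transcript Hoxa11os runs antisense to Hoxa11 and showed the same contrast, with 13.7 and 20.9 CPM in RingKO and 0 counts in WT, at least 34.1-fold higher. Whether reads were counted by strand is not stated, so Hoxa11 and Hoxa11os cannot be told apart where they overlap, nor can other overlapping HoxA transcripts.

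Hoxa13, the most posterior member, acts in digits and the genital tubercle. It had 0 and 2 counts in RingKO and 0 and 0 in WT. It was below the floor in both genotypes, was not tested and gets no fold, so the contrast seen at Hoxa9, Hoxa10 and Hoxa11 was not detectable at Hoxa13 at this depth. Evx1, the homeobox gene beyond Hoxa13, had 3.43 and 0.374 CPM in RingKO (17 and 3 counts) and 0 counts in WT, and also did not pass the filter.

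**Figure D2:**
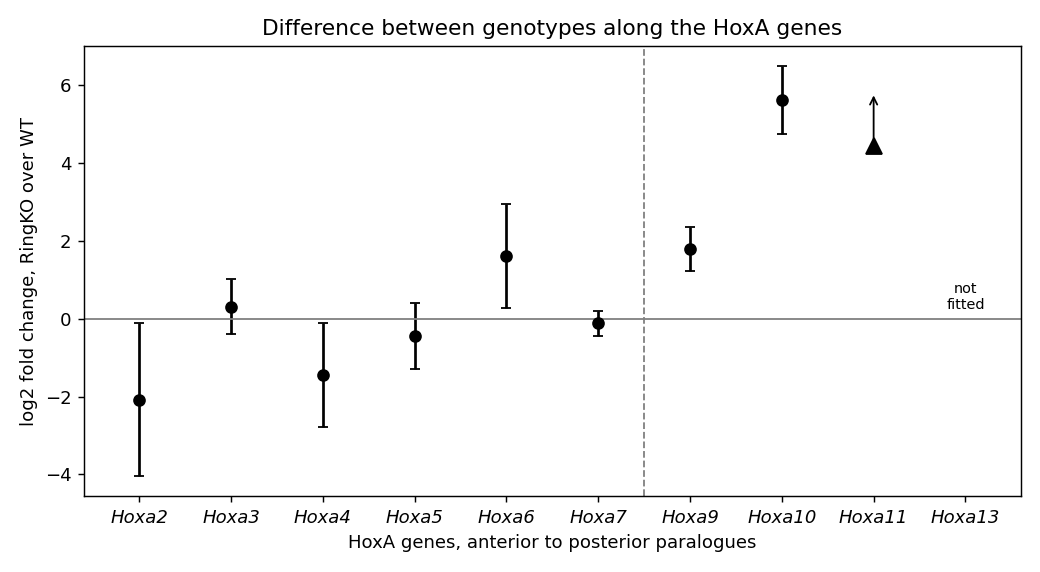
Log2 fold change of RingKO over WT for each HoxA gene in cluster order, as fitted by edgeR with its SE (2 libraries per genotype). The triangle of Hoxa11 is a lower bound against 3 counts in WT in place of its fit, and Hoxa13 was not fitted. Right of the dashed line Hoxa9 and Hoxa10 lie at 1.79 and 5.63, where the 6 genes to its left lie between -2.08 and 1.62.

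Among the 6 anterior and central members, 0 passed edgeR's test at an unadjusted p under 0.05 in either direction, and DESeq2 called 0. Hoxa7, which is known in keratinocyte differentiation, had 59.2 and 67.4 CPM in RingKO against 79.7 and 57.7 CPM in WT. Its groups overlapped, and the log2 fold change of -0.12 ± 0.32 (SE) was the most precise of all members (edgeR adjusted p = 0.923). Hoxa3, a gene of the pharyngeal region and the thymus, had 22.2 and 19.2 CPM in RingKO against 13.7 and 19.7 CPM in WT, which gave 0.31 ± 0.703 as the log2 fold change (SE; edgeR adjusted p = 0.904).

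Hoxa5, which acts in the lung and the neck skeleton, differed more within a genotype than between genotypes. It had 25.2 and 10.1 CPM in RingKO against 10.3 and 37.4 CPM in WT, and the log2 fold change was -0.44 ± 0.842 (SE; edgeR adjusted p = 0.878). Without RingKO replicate 2 the sign turned (log2 fold change 0.07), as it did without WT replicate 2 (0.75). Hoxa2, a gene of hindbrain and pharyngeal arch patterning, was likewise carried by single libraries. It had 0 and 22 counts in RingKO (0 and 2.74 CPM) against 31 and 1 counts in WT (11.8 and 0.334 CPM), and the log2 fold change was -2.08 ± 1.96 (SE; edgeR adjusted p = 0.689). Without WT replicate 1 it was 2.01.

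Hoxa4 and Hoxa6, which act in the cervical and thoracic skeleton, were low members whose groups did not overlap, in opposite directions. Hoxa4 had 2.83 and 0.871 CPM in RingKO against 5.70 and 4.34 CPM in WT (14 and 7 counts against 15 and 13), and its log2 fold change was -1.44 ± 1.33 (SE; edgeR adjusted p = 0.68). Hoxa6 had 3.84 and 3.98 CPM in RingKO against 1.52 and 1.00 CPM in WT (19 and 32 counts against 4 and 3), and its log2 fold change was 1.62 ± 1.34 (SE; edgeR adjusted p = 0.633). In all, 4 of the 9 fitted members lay higher in both RingKO libraries than in both WT libraries and 1 lay lower, where 24.8% and 22.3% of all genes tested did so. Of these 4, Hoxa9 alone was above the filter's cutoff in WT. The median log2 fold change of the 9 was 0.31, against 0.03 over all genes tested. Mira, a non-coding transcript between Hoxa6 and Hoxa7, had 35.7 and 30.9 CPM in RingKO against 36.5 and 52.1 CPM in WT, and was thus lower in both RingKO libraries (log2 fold change -0.41 ± 0.449, SE; edgeR adjusted p = 0.746).

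The make-up of the cluster's output was described within each library, where the scaling between libraries plays no part. It is built from the same counts of Hoxa9, Hoxa10 and Hoxa11, so it restates their contrast and lends it no weight. Hoxa9, Hoxa10, Hoxa11 and Hoxa13 made up 40.6% and 58.4% of all counts on the 10 genes in RingKO, with Wilson 95% intervals of 37.5 to 43.7% and 56.2 to 60.6%, against 8.5% and 13.4% in WT, with intervals of 6.02 to 11.9% and 10.5 to 17.04%. Counting error alone sets these intervals, which treat PCR copies as separate molecules. The mean share was 49.5 ± 12.6% in RingKO and 10.96 ± 3.49% in WT (SD, n = 2 each), and with 2 libraries against 2 an exact two-sided permutation test cannot go below 0.333. Hoxa7 alone made up 31% and 26.9% in RingKO against 59.5% and 41.5% in WT, and in RingKO replicate 2 Hoxa10 took its place as the member with most counts. For 1 count of Hoxa7 there were 0.635 and 1.02 counts of Hoxa10 in RingKO, against 0.00476 and 0.0289 in WT.

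The summed level of the posterior genes was 77.3 and 146 CPM in RingKO against 11.4 and 18.7 CPM in WT, a ratio of means of 7.44. Over Hoxa2 to Hoxa7 the sum was 113 and 104 CPM in RingKO against 123 and 121 CPM in WT, a ratio of 0.895. The 10 genes together therefore stood at 191 and 251 CPM in RingKO against 134 and 139 CPM in WT.

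**Figure D3:**
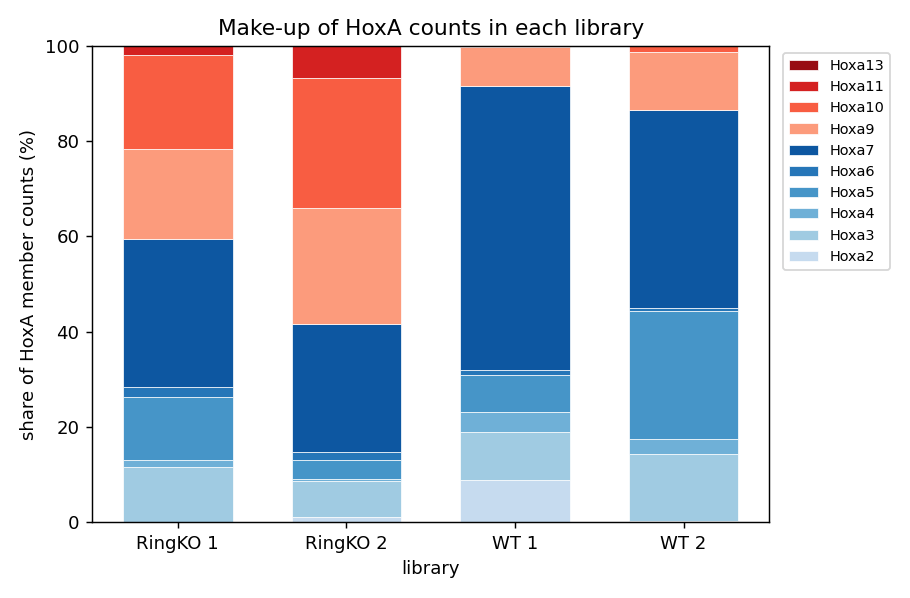
Share of each HoxA gene in all counts on the 10 genes, for the 2 RingKO libraries (left) and the 2 WT libraries (right). Reds are Hoxa9 to Hoxa13, which make up 40.6% and 58.4% in RingKO against 8.5% and 13.4% in WT, and blues are Hoxa2 to Hoxa7.

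Levels of different genes can be set side by side only per length, here as CPM per kilobase of the RefSeq gene span. The span includes introns and, for Hoxa3, far upstream start sites (44.0 kb), so it understates Hoxa3. The same holds for Hoxa10, whose span of 9.66 kb takes in 2 start sites. Before division by span, Hoxa10 had a mean of 53.0 CPM in RingKO against 17.7 CPM for Hoxa5 (span 2.83 kb). Their order below therefore depends on the span. In RingKO the order was Hoxa7 (21.4 ± 1.96 CPM per kilobase, SD), Hoxa9 (11.4 ± 4.15), Hoxa5 (6.23 ± 3.78), Hoxa10 (5.49 ± 2.26) and Hoxa11 (2.71 ± 2.44), followed by Hoxa6, Hoxa4, Hoxa2, Hoxa3 and Hoxa13 at or under 1.02. Apart from the step below Hoxa7 and the one above Hoxa13, each neighbour in that order overlapped with the next over its 2 libraries. In WT the order was Hoxa7 (23.3 ± 5.27), Hoxa5 (8.40 ± 6.77), Hoxa9 (3.28 ± 0.994), Hoxa2 (2.51 ± 3.35) and Hoxa4 (2.48 ± 0.475), with Hoxa3 and Hoxa6 under 0.4, Hoxa10 at 0.106 ± 0.0944 and no counts of Hoxa11 and Hoxa13. In WT, neighbours did not overlap over their 2 libraries at the steps below Hoxa7, Hoxa4, Hoxa6 and Hoxa10. The steps below Hoxa6 and Hoxa10 rest on few WT counts (4 and 3 for Hoxa6, 1 and 5 for Hoxa10). Before division by span, Hoxa3 stood above Hoxa4 in WT (means of 16.7 and 5.02 CPM). Hoxa6 and Hoxa10 then overlapped (1.52 and 1.00 against 0.38 and 1.67 CPM).

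The other Hox clusters were set beside HoxA. Of 28 HoxB, HoxC and HoxD genes, 24 were tested and 1 rose over all genes tested, Hoxd11, with 58.2 and 77.6 CPM in RingKO and 0 counts in WT, at least 132-fold higher (edgeR adjusted p = 0.0431). Without RingKO replicate 1, without RingKO replicate 2 and with limma-voom, 0 of these genes passed. Among paralogues 9 to 13 of these clusters, 9 of 12 reached 1 CPM in both RingKO libraries against 2 of 12 in both WT libraries, and among paralogues 1 to 8 it was 15 of 16 in RingKO against 14 of 16 in WT. For HoxA the same counts were 3 of 4 against 1 of 4 for Hoxa9 to Hoxa13, and 4 of 6 against 5 of 6 for Hoxa2 to Hoxa7. Of all 13134 tested genes, 12619 reached it in RingKO and 12069 in WT. These genes had passed the low-count filter, which largely sets that share, whereas the Hox counts include untested genes. They are therefore no background for the Hox counts, and the share over all 23377 genes was not computed. In the WT libraries 1 CPM was 2.63 and 3.00 counts, about the floor, against 4.95 and 8.03 counts in the RingKO libraries. At an unadjusted p under 0.05 in edgeR, 6 of 9 tested posterior paralogues of the other clusters were higher, and 0 of 15 anterior or central ones. All 6 stood at 0 counts in WT and could not have been lower. Whether HoxA differs from the other clusters in this was not tested.

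The clusters were not alike in WT. All 5 HoxD genes from 9 to 13 were at 0 counts in both WT libraries, where Hoxa9 had 29 and 51 counts. Hoxc13, a posterior gene known for its role in the hair shaft and nail, had the smallest log2 fold change of the tested posterior genes, with 77.9 and 75.8 CPM in RingKO against 59.2 and 68.7 CPM in WT (log2 fold change 0.26 ± 0.29, SE; edgeR adjusted p = 0.748).

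**Figure D4:**
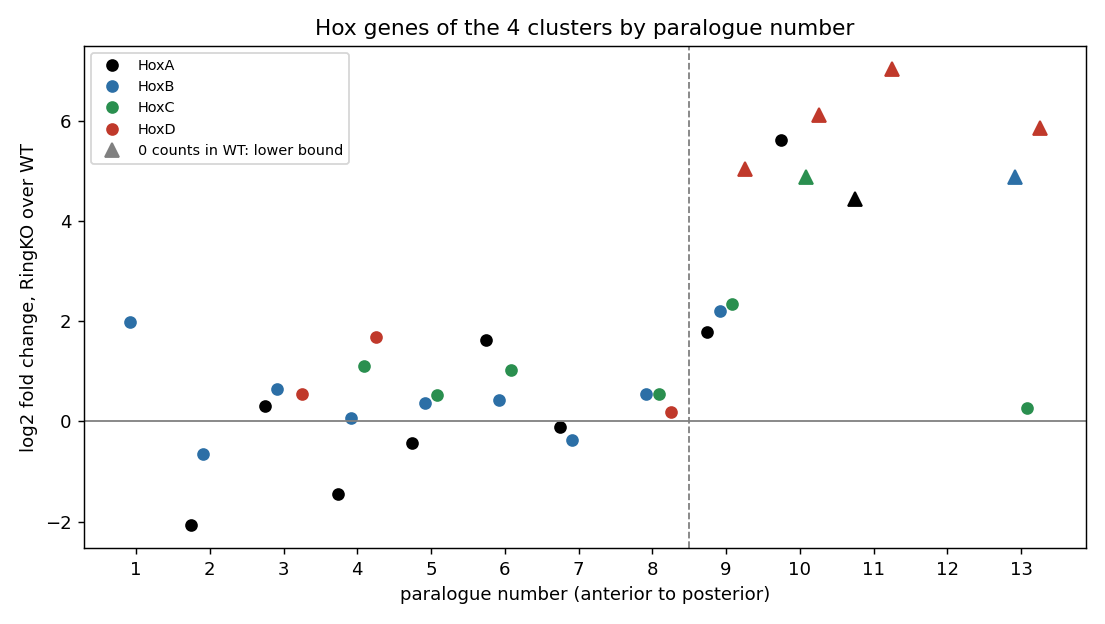
Log2 fold change of RingKO over WT for each tested gene of the HoxA, HoxB, HoxC and HoxD clusters against its paralogue number. Circles are edgeR fits and triangles lower bounds for genes with 0 counts in WT, and right of the dashed line all points but Hoxc13 (0.26) lie at 1.79 or above.

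Genes that work with or act on HoxA were counted in the same fit. Of 9 tested Hox cofactors of the TALE family, which bind DNA together with Hox proteins, 0 passed over all genes tested, and Meis2 and Tgif2 were the 2 higher at an unadjusted p under 0.05, with a list median log2 fold change of 0.16. Meis2 had 30.9 and 16.2 CPM in RingKO against 0.38 and 1.33 CPM in WT (edgeR adjusted p = 0.149). DESeq2 called both Meis2 and Tgif2 higher (DESeq2 adjusted p = 0.000297 and 0.0298). Pknox1 had 69.7 and 140 CPM in RingKO against 122 and 120 CPM in WT, and Tgif1 had 121 and 133 CPM in RingKO against 127 and 119 CPM in WT. Of 9 tested factors known upstream of HoxA, 0 passed over all genes tested (median 0.01), with Kat6a at 152 and 239 CPM in RingKO against 234 and 240 CPM in WT and Ctcf at 173 and 165 CPM in RingKO against 136 and 204 CPM in WT. The posterior activators Cdx1, Cdx2 and Cdx4 were at or under 3 summed counts in both genotypes.

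Of 11 trithorax and H3K27 demethylase genes, which act against Polycomb silencing, 0 passed either threshold (median 0.05). Kmt2a had 314 and 310 CPM in RingKO against 250 and 298 CPM in WT, and Ash1l had 308 and 248 CPM in RingKO against 235 and 236 CPM in WT. Of 24 PRC1 and PRC2 core subunits 0 passed over all genes tested and 1, Rybp, was higher unadjusted (median 0.20), with Phc3 at 242 and 211 CPM in RingKO against 208 and 193 CPM in WT and Suz12 at 157 and 113 CPM in RingKO against 156 and 156 CPM in WT. Of the 7 tested non-coding transcripts and neighbours of the cluster, 0 passed and 1 (Hoxa11os) was higher unadjusted (median -0.05). The flanking gene Tax1bp1 had 211 and 202 CPM in RingKO against 258 and 284 CPM in WT, and Skap2, on the anterior side, had 56.9 and 71.3 CPM in RingKO against 104 and 54.1 CPM in WT.

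The profile most like that of the members with a fold change of at least 4 in either direction (the mean log2(CPM + 1) of Hoxa2, Hoxa10 and Hoxa11 over 4 libraries) was that of Nr3c2, at a Euclidean distance of 0.542, followed by Slc26a6 (0.632) and Mamstr (0.686). Since 26 genes lay within a distance of 1, these 3 names are weakly set apart. The mean joins Hoxa2, which was lower in RingKO in the fit, with Hoxa10 and Hoxa11, which were higher. It is therefore not the profile of any of these members, and Nr3c2 had 6.46 and 13.6 CPM in RingKO against 1.14 and 0.667 CPM in WT. Hoxa10 on its own, a profile chosen after its values were seen, lay closest to Gjc1 (0.67), with 31.1 and 48.9 CPM in RingKO against 0.759 and 2.00 CPM in WT.

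Summed markers of other cells differed between genotypes for some cell types and overlapped for others, and their part in the HoxA contrast was not tested. Markers of dermal fibroblasts and papilla cells, which carry position-dependent Hox expression, summed to 433 and 273 CPM in RingKO against 683 and 857 CPM in WT (12 and 12 of 12 with a count in RingKO, 9 and 10 in WT). Dcn alone kept these sums apart, at 272 and 159 CPM in RingKO against 593 and 430 CPM in WT. Without Dcn the other 11 summed to 161 and 114 CPM in RingKO against 89.2 and 426 CPM in WT, which overlap. Col1a1, Col1a2 and Col3a1 were high in WT replicate 2 only, with Col1a2 at 13.5 and 5.97 CPM in RingKO against 11.4 and 139 CPM in WT. Pdgfra had 6.66 and 12.2 CPM in RingKO against 0.38 and 6.34 CPM in WT, and Crabp1 had 34.7 and 27.6 CPM in RingKO and 0 counts in WT. Leukocyte markers summed to 539 and 260 CPM in RingKO against 122 and 121 CPM in WT, with 8 of 10 detected in each library, Cd207 at 0 in all and Cd3e at 0 in 3 libraries.

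Merkel cell markers summed to 76.7 and 104 CPM in RingKO against 7.97 and 31.4 CPM in WT (4 and 5 of 5 with a count in RingKO, 2 and 5 in WT), with the defining factor Atoh1 at or under 0.871 CPM in every library. Endothelial and mural markers summed to 15.8 and 64.9 CPM in RingKO against 177 and 180 CPM in WT (5 and 6 of 7 with a count in RingKO, 4 and 7 in WT). Most of the WT sums was Acta2, at 9.89 and 46.7 CPM in RingKO against 158 and 138 CPM in WT. The endothelial genes Pecam1 and Cdh5 had 0 counts in WT replicate 1 and 35 and 27 counts in WT replicate 2. Pdgfrb went the other way, with 3.23 and 17.4 CPM in RingKO against 0 and 1.33 CPM in WT. Melanocyte markers summed to 26.9 and 35.9 CPM in RingKO against 45.9 and 72.8 CPM in WT (5 and 3 of 5 in RingKO, 3 and 4 in WT). Schwann cell markers summed to 10.3 and 8.59 CPM in RingKO against 5.70 and 18.4 CPM in WT (3 and 3 of 4 in RingKO, 3 and 2 in WT), with Sox10 at 0 in all libraries. Intestinal markers summed to 23.6 and 14.4 CPM in RingKO against 9.87 and 12.4 CPM in WT (4 and 4 of 6 in RingKO, 2 and 2 in WT). Most of the RingKO sums was Lyz1, at 22.8 and 10.1 CPM in RingKO against 4.94 and 6.34 CPM in WT. Cdx1 was at 0 in all libraries. In sums over many cells, fewer cells of a type and less RNA per cell cannot be told apart.

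Ring1b occupancy was described on chromosome 6, which carries HoxA. The 100 kb stretch with the largest length under hair follicle stem cell peaks was chr6:52173971-52273970 (mm9), with 34 peaks covering 27.7%, where the next densest stretch of the chromosome had 11 peaks and 6.62%. In this stretch 29 of the 34 follicle peaks (85.3%) overlapped an intestinal peak, and 32 of 48 intestinal peaks (66.7%) overlapped a follicle peak. Intestinal peaks covered 30.1% of this stretch, which was picked for its length under follicle peaks. The same shares were not computed for peaks elsewhere, so whether overlap was more frequent here was not tested. The densest intestinal stretch, chr6:52124729-52224728 (mm9), overlapped it and held 62 peaks over 47.4% of its length, against 7.78% in the next densest. The highest fold over the caller's background, the authors' own value per peak, was 24.6 in follicle and 14.8 in intestinal cells, and is not comparable across lists, each called once per tissue without replicates. The peaks carry no gene names, since no mm9 annotation was used, and were not set against single HoxA genes.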

How the data were processed

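Raw counts per gene symbol were deposited for 2 RingKO and 2 WT libraries. The deposited normalized table holds a signal, these counts divided by 1 factor per library, and was not used for any test. Per the file headers, the authors' comparison table holds a log2 fold change (RingKO over WT) with a standard error and test score, raw and adjusted p-values, and group means of that signal. The deposited peak lists give a score, a fold ratio over background and −log10 p and q per peak. Per the labels' protocols, RNA libraries were made with SMART-seq2, in which cDNA primed from poly(A) tails is PCR-amplified along the whole transcript. The submitters' processing notes list MACS2 2.1.1, HTSeq 0.7.2, DESeq2 (version given as 3.7), TopHat2 2.1.1, Bowtie 1.2.2 and build mm9. No source used here gives each tool's role, the annotation, strand use or the peak-calling control.

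Counts of all 23377 genes were filtered with filterByExpr, which left 13134, scaled with TMM and tested with edgeR 4.0.16 (R 4.3.3; robust quasi-likelihood fit, genotype as the only term) with Benjamini-Hochberg adjustment. CPM uses TMM-scaled library sizes, and each SE was derived from the fold change and its F statistic. DESeq2 1.42.0 and limma-voom 3.58.1 were alternatives. A group without counts was set to a floor of 3 counts over the group. Summaries, intervals, promoters and peaks (overlap of at least 1 bp) were computed in Python 3.11.15. Counts of same-genotype libraries differed beyond sampling noise (chi-square per degree of freedom 25 in RingKO and 15 in WT). No library was therefore merged for the tests. Ratios with counting intervals and lower bounds used counts summed within a genotype and leave out this spread.

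All 10 members are named. From each list the text names up to 3 genes past the threshold, or the 2 of highest mean CPM. Genes named beside these (HoxA neighbours, Meis2, Tgif2, Rybp, Hoxc13, Cdx and marker genes) were chosen after their values were seen. The members and lists were chosen with earlier results of these data known.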

Additional observations from a re-analysis of the deposited data

How the results depend on the processing

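The number of HoxA members called by edgeR, 0 of 9, was also 0 with DESeq2 size factors, upper-quartile or TMMwsp factors (the last chosen after seeing the data), a filter of 1 CPM in 2 libraries, and limma-voom. It was 2 with no low-count filter (Hoxa10 and Hoxa11), 3 with DESeq2 (Hoxa9, Hoxa10 and Hoxa11) and 1 at an adjusted p under 0.1 (Hoxa10). Leaving out single libraries gave 0 to 1, the 1 being Hoxa10 without WT replicate 2. Over 13 alternatives that refit the data, 113 of 117 member fold changes kept their direction. Those that turned were Hoxa2 without WT replicate 1 (2.01), Hoxa5 without RingKO replicate 2 (0.07) and without WT replicate 2 (0.75), and Hoxa7 without WT replicate 1 (0.14). Over the left-out libraries Hoxa2 ranged from -7.44 to 2.01, Hoxa5 from -1.24 to 0.75 and Hoxa7 from -0.35 to 0.14. The cause was not tested. The log2 fold change of Hoxa9 ranged from 1.35 to 2.13 and that of Hoxa10 from 4.98 to 7.03, with adjusted p from 0.0075 to 0.665 and from 2.98e-09 to 0.473.

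The number of members with every RingKO library above every WT library, 4, became 5 without any 1 of the libraries. With a library left out this number can only stay or rise, since fewer values have to be passed. Its share over all genes was not computed for these settings, so the rise lends the contrast no weight. The difference in posterior share, 38.5 percentage points (29.8 per kilobase), ranged from 29.6 to 47.5 points over the left-out libraries. HoxB, HoxC and HoxD genes called, 1 in all, were 6 with no filter and with DESeq2, 3 at an adjusted p under 0.1, 0 with the 1 CPM filter, limma-voom and TMMwsp, and 0 to 2 without single libraries. Of all genes, edgeR called 7 higher and 1 lower, against 455 and 347 with no filter, 901 and 891 with DESeq2, 1 and 0 with the 1 CPM filter and with TMMwsp, and 0 with limma-voom (1956 at an unadjusted p under 0.05). Without RingKO replicates 1 and 2 in turn edgeR called 1 and 0 higher and 0 lower (1098 at an unadjusted p under 0.05 in the second), and without WT replicates 1 and 2 in turn 26 and 43 higher and 6 and 17 lower. Follicle peaks overlapped in the chromosome 6 stretch, 85.3%, were 95.5% in a 50 kb stretch, 67.6% when 50% of the peak had to be covered and 76.7% at a −log10 q of at least 5.

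The labels give both genotypes replicate numbers without saying that these pair the samples, and the deviations of same-numbered libraries from their group means correlated at -0.14 (Pearson, across 13134 genes, which are not independent). With the replicate block edgeR called 1 member (Hoxa10, adjusted p = 0.000276), 6 genes of the other clusters and 213 higher and 203 lower genes in all. The crossed replicate block, added after seeing the data, called 0 members and 8 higher and 0 lower genes. Depth limits Hoxa13 and, in WT, Hoxa10 and Hoxa11, where a few counts decide the size of a fold.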
